A study of Mus musculus with 24 samples.

Results

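The IL-6 family and STAT3 signalling genes were followed in mouse gastrocnemius muscle after burn. They were 10 genes out of 55401 in the mRNA counts table, chosen by symbol: the cytokine Il6, the receptor genes Il6ra, Il6st and Osmr, the transcription factor Stat3, its feedback inhibitor Socs3, and the target genes Junb, Bcl3, Cebpb and Myc. All 10 symbols were found. All but Il6 passed the filter on low counts, which left 12651 genes for testing.

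All animals were male C57BL6 mice. Young mice were 4 weeks old on arrival and 5 weeks old at injury, and adult mice were 10 weeks old on arrival and 11 weeks old at injury. The young burn and adult burn groups received a scald over 25% of the body surface with fluid resuscitation by lactated Ringer's solution, and the young sham and adult sham groups received neither, so that burn and resuscitation cannot be told apart. Isoflurane and buprenorphine were given to all groups, muscle was taken 24 h after the procedure, and each group held 3 mice with 1 poly-A mRNA library and 1 small RNA library per mouse.

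Interleukin-6 and its relatives signal through receptor complexes that share the subunit gp130, the product of Il6st. Janus kinases bound to the receptor phosphorylate STAT3, which dimerizes, enters the nucleus and activates genes that include its own gene and that of its inhibitor SOCS3. In skeletal muscle the pathway is known for its part in inflammation, regeneration and wasting. Transcript counts do not measure the phosphorylation of STAT3.

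The mRNA libraries held 4392605 to 5688512 counts. The totals of the adult burn libraries, from 5585064 to 5688512, were above all adult sham libraries, which held 4392605 to 4727802. Young burn replicate 2 stood apart, with a median correlation of log2 levels with the other libraries of 0.929, against 0.957 to 0.970 for the other 11. The study's own clustered display of burn effects leaves a young burn animal out and shows replicates 1 and 3. The tests below therefore used 11 libraries, with 2 young burn mice, and the result in all 12 libraries stands beside them. All 8 muscle fibre markers were detected in every library. Levels are given as counts per 1000000 counts (CPM) scaled by TMM factors, and genes with an adjusted p under 0.05 in edgeR's quasi-likelihood test, adjusted over all genes, are described as called.

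The promoter windows of Stat3, which changed with burn, and of Socs3, a textbook target of its product, are shown for comparison. The STAT-type motif TTCNNNGAA, which reads the same on both strands, was searched in RefSeq windows from 250 bases before to 50 bases after each gene start (GRCm38.p6). Windows were found for 9 of the 10 genes. The motif occurred once, in Socs3, beginning 154 bases before the RefSeq start, and in none of the other 8 windows. Of all 32851 windows, 8.3% held it. Starts in this paragraph are those of RefSeq. The Gencode genes of Socs3 and Osmr, both on the minus strand, start further upstream, at 117970047 and 6874969. Their windows therefore lie within those Gencode genes. The 250 bases before the start of Stat3 (chr11:100939541-100939790, minus strand) and of Socs3 (chr11:117969367-117969616, minus strand) read as follows, 5′ to 3′, with the motif in capitals. A match is a string of letters, not a measured binding site, and its absence covers this window alone.
Stat3: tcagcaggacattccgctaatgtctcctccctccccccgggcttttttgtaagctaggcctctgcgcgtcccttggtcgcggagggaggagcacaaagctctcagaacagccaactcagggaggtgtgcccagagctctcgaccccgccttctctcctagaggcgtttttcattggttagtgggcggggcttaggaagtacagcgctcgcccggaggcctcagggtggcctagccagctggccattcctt
Socs3: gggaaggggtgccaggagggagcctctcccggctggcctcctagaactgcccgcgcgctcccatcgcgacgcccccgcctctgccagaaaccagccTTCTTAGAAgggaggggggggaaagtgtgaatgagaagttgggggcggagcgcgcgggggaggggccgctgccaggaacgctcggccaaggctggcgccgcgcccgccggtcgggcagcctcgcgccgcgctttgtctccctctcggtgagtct

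The sham levels of the 10 genes spanned a wide range. Per kilobase of exon, the mean over the 6 sham libraries was 26.1 CPM per kb for Cebpb, 15.7 for Il6st, 8.68 for Junb, 4.54 for Stat3, 3.05 for Myc and 2.37 for Socs3. Il6ra had 1.38 CPM per kb, Osmr 1.23, Bcl3 0.915 and Il6 0.0142. The shared subunit Il6st was thus measured at a higher level per length than its partners Il6ra and Osmr in sham muscle.

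**Figure D1:**
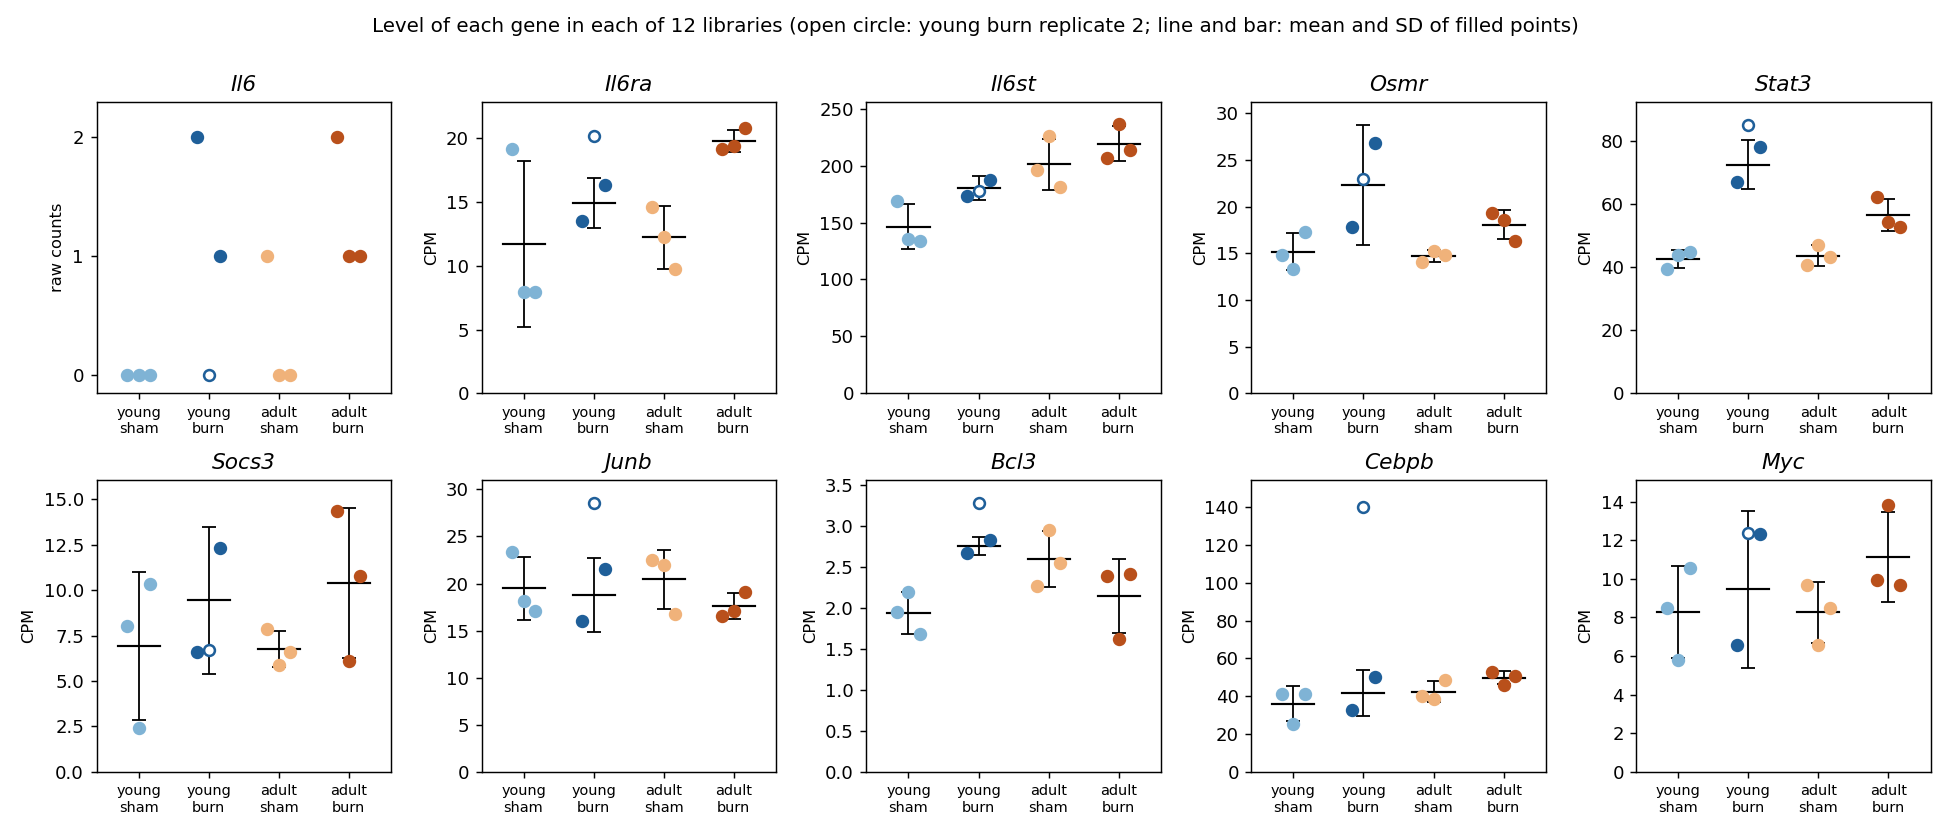
Level of each gene in each of the 12 mRNA libraries, by group, in CPM (Il6 in raw counts); filled points entered the tests, the open circle is young burn replicate 2, and lines and bars give mean and SD of the filled points. Stat3 lay between 67.1 and 85.1 CPM in young burn and between 39.3 and 44.9 CPM in young sham, and Cebpb reached 140 CPM in young burn replicate 2 alone.

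Stat3 (ENSMUSG00000004040.16, minus strand of chromosome 11, 100885098 to 100939540, GRCm38), the transcription factor at the centre of the pathway, was the member that rose after burn. Its level was 39.3, 43.9 and 44.9 CPM in young sham and 67.1, 85.1 and 78.1 CPM in young burn replicates 1 to 3. In adult sham it was 40.7, 47.2 and 43.3 CPM, and in adult burn 62.4, 54.5 and 52.8 CPM. Every burn library, young burn replicate 2 included, was above every sham library of either age, and every young burn library was above every adult burn library. The group means were 42.7 ± 2.96 CPM in young sham, 43.7 ± 3.30 in adult sham, 56.5 ± 5.14 in adult burn (SD, n = 3 each) and 72.6 ± 7.77 in young burn (SD, n = 2). The sham groups overlapped in this order, and the adult burn mean did not pass the test against adult sham.

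In young burn against young sham, Stat3 was 1.71-fold higher (95% interval 1.44 to 2.04), a log2 fold change of 0.77 (SE 0.12, adjusted p = 0.0134). With all 12 libraries, which called 0.0645% of all genes, the log2 fold change was 0.84 (adjusted p = 0.0277), and it was higher in 3 of 3 young burn mice. The call was lost without young sham replicate 2 (0.80, adjusted p = 0.0506) and without young burn replicate 3 (0.66, adjusted p = 0.249, with a single young burn library assumed to vary like the others). Stat3 was the only member called among 9 tested, in a comparison where 0.664% of all genes were called. In bulk tissue, a change in the number of cells of a type and a change in RNA per cell cannot be told apart.

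In adult burn against adult sham, no member was called by edgeR, with 0.909% of all genes called. Stat3 and Il6ra had an unadjusted p under 0.05, which makes 2 of 9 against 13.7% of all genes. DESeq2 called 0 members and 2.33% of all genes, and edgeR with all 12 libraries called 0 members and 0.00806% of all genes. The log2 fold change of Stat3 was 0.36 (95% interval 0.13 to 0.59, adjusted p = 0.137, and 0.614 with all 12 libraries). The burn effect of Stat3 was 0.41 larger in young than in adult mice on the log2 scale (95% interval 0.07 to 0.75), and this difference did not pass the test (adjusted p = 0.376). For this burn by age interaction edgeR called 0.0949% of all genes and 0 members. Stat3 alone among the members, 1 of 9, had an unadjusted p under 0.05, against 11.1% of all genes. DESeq2 called 0 members and 0.73% of all genes there, and edgeR with all 12 libraries called 0 genes, 0%.

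An additive fit of age and burn to the 11 libraries gave 1 burn term for both ages. Stat3 rose by 1.46-fold (95% interval 1.27 to 1.68, log2 fold change 0.55, SE 0.094, adjusted p = 0.00785), and this call held without each library in turn, with adjusted p up to 0.0357. In all 12 libraries the log2 fold change was 0.60 (adjusted p = 0.0241). It was the only member called in either fit, where 2.15% of all genes were called in 11 libraries and 0.717% in 12. Between the burn groups, Stat3 was 1.31-fold higher in young mice (log2 fold change 0.39, SE 0.12, adjusted p = 0.0286), in a comparison that called 20.7% of all genes. With all 12 libraries, which called 10.8% of all genes, this was 0.46 (adjusted p = 0.03). DESeq2 in the 11 libraries did not call it (0.36, adjusted p = 0.0784), and the edgeR call was lost without young burn replicate 1 (adjusted p = 0.0506), young burn replicate 3 (0.267), adult burn replicate 2 (0.0794) or adult burn replicate 3 (0.0958). Without burn, Stat3 did not pass the test between ages, at a log2 fold change of -0.025 (95% interval -0.26 to 0.21) for young against adult sham. Young burn libraries enter both comparisons, so the comparison with young sham and that with adult burn are not independent.

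Stat3 and Stat5a, which encodes a related transcription factor, share exon bases on opposite strands. Whether counting used strand was not stated, so reads of such gene pairs cannot be told apart. Stat5a had 10.4 to 17.3 CPM in the 12 libraries, and its log2 fold change in young burn against young sham was -0.18 (adjusted p = 0.692). The same limit holds for Il6ra with Gm42809 (3 counts in all), Bcl3 with Gm16175 (0 counts), Junb with Prdx2 and Cebpb with Tmem189.

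Leukocyte, muscle fibre and other cell type markers were read beside Stat3. The summed level of 10 macrophage markers was 315 to 435 CPM in young sham, 547 to 925 in young burn with replicate 2 included, 327 to 401 in adult sham and 401 to 545 in adult burn. In young burn against young sham, 4 of the 10 were called higher (C1qa, C1qb, C1qc and Lyz2), against 0.664% of all genes. In adult burn against adult sham 0 of 10 were, against 0.909%, with 3 at an unadjusted p under 0.05, against 13.7%. DESeq2 called 1 of the 10 in the adult comparison, against 2.33%. In young burn against adult burn 6 were called higher, against 20.7%. With all 12 libraries edgeR called 0 of the 10 in young burn against young sham, against 0.0645% of all genes. Of the 10, 9 had an unadjusted p under 0.05 there. In the 11 libraries DESeq2 called 8 in young burn against young sham, against 2.12% of all genes. For the burn term edgeR called 5 of the 10 macrophage markers higher, against 2.15% of all genes. With all 12 libraries it called 2 there, against 0.717%. DESeq2 in the 11 libraries called 9 for the burn term, against 3.29%. The summed level of 10 neutrophil markers was 1.99 to 4.13 CPM in young sham and 9.48 to 10.3 in young burn replicates 1 and 3, and it was 27.3 in replicate 2. It was 2.34 to 5.99 CPM in adult sham and 6.83 to 15.7 in adult burn, and the defining markers Ltf and Ly6g were at 0 in all 12 libraries. Of the 10 neutrophil markers 2 were tested. S100a9 was called higher in young burn against young sham, with 0 called in 12 libraries. In adult burn against adult sham 0 were called. For the burn term S100a8 and S100a9 were called higher, against 2.15% of all genes. With all 12 libraries S100a9 alone was called for it, against 0.717%. The 8 muscle fibre markers summed to 109900 to 157400 CPM in young sham and to 99510 and 103600 CPM in young burn replicates 1 and 3, with 80680 CPM in replicate 2, so that the young groups did not overlap. In adult sham they summed to 94890 to 104900 CPM and in adult burn to 96620 to 111600 CPM, with overlap. In young burn against young sham edgeR called 0 of these 8. The unadjusted p was under 0.05 for 6 of them, while DESeq2 called Myh1 and Tnnt3, 1 higher and 1 lower. The share of all genes at an unadjusted p under 0.05 is not given here for young burn against young sham. Of the 8 endothelial markers Vwf was called higher there in 11 libraries, and 0 were called in 12, with 2 at an unadjusted p under 0.05. In young burn against adult burn, which called 20.7% of all genes, 4 of 6 fibroblast markers and 4 of 8 endothelial markers were called higher. Of the fibre markers 3 were called higher and 1 lower there. In adult burn against adult sham the fibre markers Myh1 and Myh2 and the endothelial marker Kdr were called lower. The part of these cells in the Stat3 results was not tested.

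**Figure D2:**
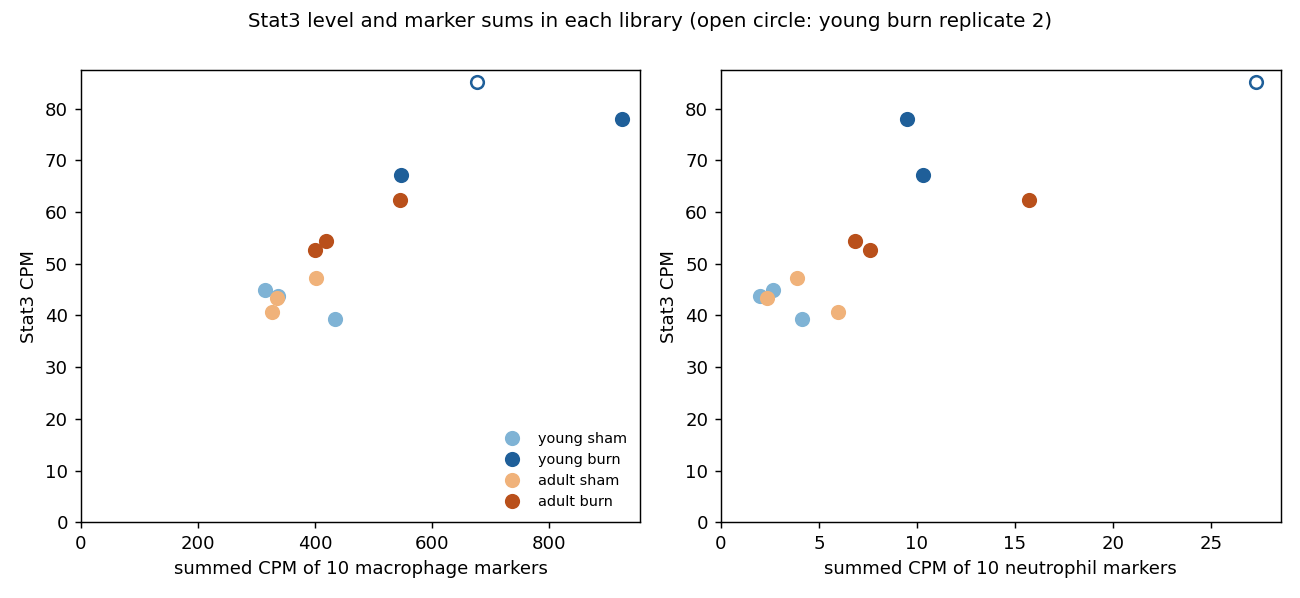
Stat3 level (vertical axis, CPM) against the summed CPM of 10 macrophage markers (left) and 10 neutrophil markers (right), 1 point per library, coloured by group. The 3 young burn libraries lay highest for Stat3, at 67.1 to 85.1 CPM, and had macrophage sums of 547 to 925 CPM, above those of all other libraries.

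Of 11877 protein-coding genes, the 5 whose log2 CPM followed Stat3 most closely over the 11 libraries were Cndp2 (Pearson r = 0.931), Slc29a3 (0.923), BC005537 (0.92), Ly6a (0.914) and Vwa5a (0.913). Among the members, Osmr had the highest coefficient at 0.882, and 0.143% of genes were above it. These coefficients describe 11 libraries that share the burn and age groups, so they include the differences between groups. The other tested members ranged from -0.267 for Junb to 0.41 for Socs3.

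The cytokine Il6 was close to undetected. It had 0 counts in the 3 young sham libraries, 2, 0 and 1 in young burn, 1, 0 and 0 in adult sham, and 2, 1 and 1 in adult burn. As a one-sided bound, a count of 0 allows up to 3 counts, which over the young sham group is 0.208 CPM. Of the 8 counts in 12 libraries, 7 were in burn libraries. The counts were also pooled over a group, with young burn replicate 2 included and without TMM scaling. Young burn was then at 0.202 CPM (exact two-sided Poisson 95% interval 0.0416 to 0.59) and young sham at 0 (0 to 0.256). Adult burn was at 0.237 CPM (0.0646 to 0.607) and adult sham at 0.0723 CPM (0.00183 to 0.403). The intervals of burn and sham overlapped at both ages, and a difference in Il6 was not detectable at this depth. These intervals cover counting error alone.

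Among the other ligands of the family, Ctf1, the cytokine cardiotrophin-1, passed the filter. It lay between 5.29 and 13.3 CPM and was not called in any comparison. Lif had 51 counts in the 12 libraries, Clcf1 78, Il11 15, Ebi3 10, Osm 9, Cntf 5, Il27 2 and Il31 0. These 8 ligand genes did not pass the filter on low counts.

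Among the receptor genes, Osmr (chromosome 15, 6813577 to 6874969, minus strand), the receptor subunit for oncostatin M, had 14.8, 13.4 and 17.3 CPM in young sham and 17.8, 22.9 and 26.8 CPM in young burn. It had 14.03, 15.2 and 14.9 CPM in adult sham and 19.3, 18.5 and 16.3 CPM in adult burn. Burn and sham did not overlap at either age. The log2 fold changes of 0.57 in young (SE 0.18, adjusted p = 0.143) and 0.29 in adult mice (SE 0.17, adjusted p = 0.468) did not pass the test, nor did the burn term of 0.42 (SE 0.13, adjusted p = 0.102). The young value was 0.84 without young burn replicate 1 (adjusted p = 0.0700) and 0.24 without young burn replicate 3 (adjusted p = 0.804).

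Il6ra (chromosome 3, 89864059 to 89913196, minus strand), the receptor subunit that binds interleukin-6, had 19.2, 7.98 and 7.93 CPM in young sham and 13.5, 20.2 and 16.3 CPM in young burn. In adult sham it had 14.7, 12.3 and 9.77 CPM, and in adult burn 19.1, 19.4 and 20.8 CPM. Young sham replicate 1 lay within the range of the burn libraries, while the adult groups did not overlap. The log2 fold change was 0.38 in young (SE 0.30, adjusted p = 0.574) and 0.68 in adult mice (SE 0.26, adjusted p = 0.242), and neither passed. The burn term was 0.55 (SE 0.19, adjusted p = 0.157). It rose to 0.76 (adjusted p = 0.00963) without young sham replicate 1.

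Il6st (chromosome 13, 112464070 to 112510086, plus strand), which encodes the shared subunit gp130, was the member that differed by age in sham muscle. Its level was 169, 136 and 134 CPM in young sham and 196, 226 and 181 CPM in adult sham, with no overlap. It was 173, 178 and 188 CPM in young burn and 207, 236 and 214 CPM in adult burn. Young sham was lower than adult sham by 0.45 on the log2 scale (SE 0.12, adjusted p = 0.0213), and Il6st was the only member called in this comparison, in which 11.8% of all genes were called. In all 12 libraries, with 3.76% of all genes called, the log2 fold change was -0.44 (adjusted p = 0.0715), and the call was also lost without young sham replicate 2 (-0.40, adjusted p = 0.0762), young sham replicate 3 (-0.39, 0.104), adult sham replicate 1 (-0.46, 0.0523) or adult sham replicate 2 (-0.35, 0.112). The 6 fibroblast markers summed to 5949 to 6319 CPM in young sham and 2538 to 3389 CPM in adult sham, and the part of cell composition in this result was not tested. The paper's RNA quality report gives no integrity number for any sample. In it, no young sham sample had a ribosomal RNA ratio above that of any adult sham sample. The part of RNA quality was not tested either. After burn the log2 fold change of Il6st was 0.31 in young (SE 0.13, adjusted p = 0.251) and 0.12 in adult mice (SE 0.11, adjusted p = 0.717).

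Of the other receptor genes on the list, Lifr (69.3 to 106 CPM), Il11ra1 (72.1 to 90.4 CPM) and Cntfr (5.94 to 18.0 CPM) were tested and not called in any comparison. Il27ra, with 53 counts, and Il31ra, with 1, did not pass the filter.

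The inhibitor gene Socs3 (chromosome 11, 117966079 to 117970047, minus strand), whose product blocks signalling at gp130, varied more between mice of a group than between groups. It had 8.02, 2.39 and 10.3 CPM in young sham, 6.58, 6.73 and 12.3 CPM in young burn, 7.84, 5.90 and 6.59 CPM in adult sham, and 14.4, 6.11 and 10.8 CPM in adult burn. The groups overlapped at both ages, and the coefficient of variation within groups was 42.2%, against 8.70% for Stat3. The log2 fold change was 0.48 in young (95% interval -0.47 to 1.44, adjusted p = 0.644) and 0.61 in adult mice (95% interval -0.23 to 1.44, adjusted p = 0.529). The upper bounds leave room for a rise larger than that of Stat3, and the burn term of 0.55 (SE 0.29) had an adjusted p of 0.353.

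**Figure D3:**
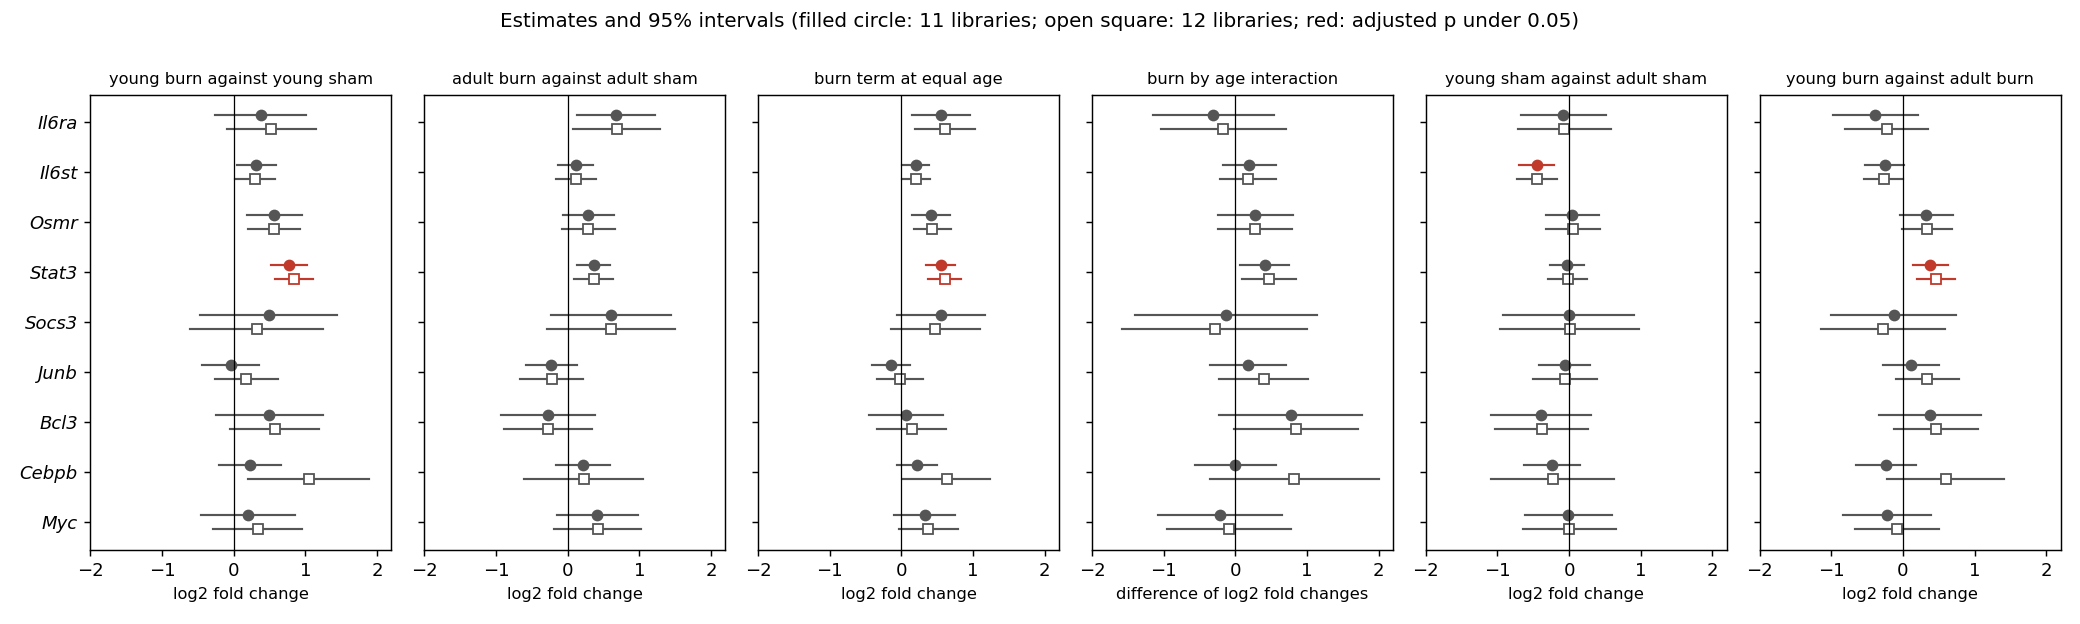
Log2 fold changes of the 9 tested genes with 95% intervals in the 6 comparisons (for the interaction, the difference of both burn effects); circles are 11 libraries, open squares 12, and red marks an adjusted p under 0.05. Stat3 is red in young burn against young sham (0.77), in the burn term (0.55) and in young burn against adult burn (0.39), and Il6st is red between the sham groups in 11 libraries only (-0.45).

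Among the target genes, Cebpb (chromosome 2, 167688915 to 167690418, plus strand), a transcription factor of the acute-phase response, had 41.3, 25.3 and 41.3 CPM in young sham and 32.9, 140 and 50.04 CPM in young burn. It had 40.0, 38.6 and 48.7 CPM in adult sham and 52.6, 45.8 and 50.7 CPM in adult burn. The 140 CPM of young burn replicate 2, from 769 counts, stood above the 25.3 to 52.6 CPM of the other 11 libraries. The log2 fold change in young mice was 0.22 without this library (SE 0.20, adjusted p = 0.644) and 1.05 with it (SE 0.39, adjusted p = 0.172). Tmem189, on the opposite strand, had 16.8 to 27.7 CPM in the 12 libraries. In adult mice Cebpb differed by 0.22 on the log2 scale (SE 0.18, adjusted p = 0.627).

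Junb (chromosome 8, 84974484 to 84978718, minus strand), a subunit of the AP-1 factor, had 23.3, 18.1 and 17.1 CPM in young sham and 16.02, 28.6 and 21.6 CPM in young burn. In adult sham it had 22.5, 22.0 and 16.8 CPM and in adult burn 16.6, 17.1 and 19.1 CPM. The groups overlapped at both ages, with log2 fold changes of -0.044 in young (SE 0.19, adjusted p = 0.935) and -0.23 in adult mice (SE 0.17, adjusted p = 0.586). Its opposite-strand neighbour Prdx2, at 123 to 182 CPM, differed by 0.031 on the log2 scale (adjusted p = 0.917) between young burn and young sham.

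Bcl3 (chromosome 7, 19808462 to 19822770, minus strand), a cofactor of NF-kappaB, was low, with 7 to 18 counts per library. It had 1.94, 2.19 and 1.68 CPM in young sham, 2.67, 3.27 and 2.83 CPM in young burn, 2.27, 2.95 and 2.55 CPM in adult sham, and 2.39, 1.62 and 2.42 CPM in adult burn. The young burn libraries lay above all young sham libraries, whereas the adult groups overlapped. Its log2 fold change was 0.50 in young (SE 0.35, adjusted p = 0.549) and -0.28 in adult mice (SE 0.31, adjusted p = 0.774), and the interaction of 0.77 (SE 0.47) did not pass (adjusted p = 0.579).

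Myc (chromosome 15, 61985391 to 61990374, plus strand), a regulator of growth, had 8.50, 5.78 and 10.6 CPM in young sham and 6.58, 12.4 and 12.3 CPM in young burn. In adult sham it had 9.70, 6.58 and 8.50 CPM, and in adult burn 9.92, 13.8 and 9.66 CPM. Adult burn replicate 3 fell just below adult sham replicate 1, so that the groups overlapped. The log2 fold changes of 0.20 in young (SE 0.31, adjusted p = 0.800) and 0.42 in adult mice (SE 0.27, adjusted p = 0.525) did not pass the test.

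Over the 9 tested members, the median log2 fold change was 0.38 in young burn against young sham, beside 0.0095 over all genes, and 8 of the 9 estimates were positive. In adult burn against adult sham it was 0.29, beside -0.0037, with 7 positive. Stat3, Il6st, Osmr and Bcl3 had no overlap of young burn above young sham in the 11 libraries, 4 of 9 against 16.8% of all genes. Stat3, Il6ra and Osmr, 3 of 9, did not overlap in adult burn above adult sham, against 10.8% of all genes. Between the sham groups Il6st and Bcl3 were lower in young mice without overlap, 2 of 9 against 16.3% of all genes. Between the burn groups Stat3 and Bcl3 were higher in young mice without overlap, against 25.2%, and Il6ra and Il6st were lower, against 28.4%. With young burn replicate 2 included, Il6ra overlapped between the burn groups (20.2 CPM in that library), and Il6st alone remained lower without overlap. These counts are descriptions of a list chosen with results of these data known.

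The pathway was next read from a list of 67 genes, which held the 10 members and further ligands, receptors, Janus kinases and STATs, inhibitors and target genes. Of these, 53 were tested. After burn, 1 gene of the 53 was called in each age group: Stat3 in young mice and Cebpd in adult mice, both higher. Over all genes, 0.664% were called in young and 0.909% in adult mice. The median log2 fold change of the list was 0.098 in young and 0.097 in adult mice, beside 0.0095 and -0.0037 over all genes. For the burn term Stat3 alone was called, against 2.15% of all genes. The interaction called 0 of 53 in edgeR, against 0.0949% of all genes, and 0 by DESeq2, against 0.73%. Of the 53, 7 had an unadjusted p under 0.05 there, against 11.1% of all genes.

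Cebpd, which encodes a transcription factor induced by cytokines and glucocorticoids, had 24.2, 32.5 and 34.6 CPM in adult sham and 48.9, 100 and 78.6 CPM in adult burn. All 3 adult burn libraries were above the sham libraries. In young sham it had 48.1, 17.9 and 26.4 CPM and in young burn 29.5, 62.9 and 35.3 CPM, with overlap. The adult log2 fold change was 1.31 (SE 0.29, adjusted p = 0.0443). With all 12 libraries the log2 fold change was 1.32 and the adjusted p was 0.555, and the call held in 3 of the 11 fits that left out 1 library: it was lost without young sham replicate 3, young burn replicates 1 or 3, adult burn replicates 2 or 3, or any adult sham library, with adjusted p up to 0.220.

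Among Janus kinases and STATs, 10 of 11 listed genes were tested, and Stat3 in young mice was the only call in the burn comparisons of either age. Jak1 ranged from 167 to 222 CPM and Jak2 from 32.4 to 83.6 CPM. Of 17 inhibitor genes, 16 were tested. EdgeR called 0 of them after burn at either age, against 0.664% of all genes in young and 0.909% in adult mice, and DESeq2 called 0. An unadjusted p under 0.05 was found for 1 in young and 2 in adult mice. Over all genes the share at that threshold was 13.7% in adult mice and is not given here for young mice. Cish, an inhibitor induced by STAT5, varied from 1.08 to 49.2 CPM across libraries, which was also the range within adult burn.

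**Figure D4:**
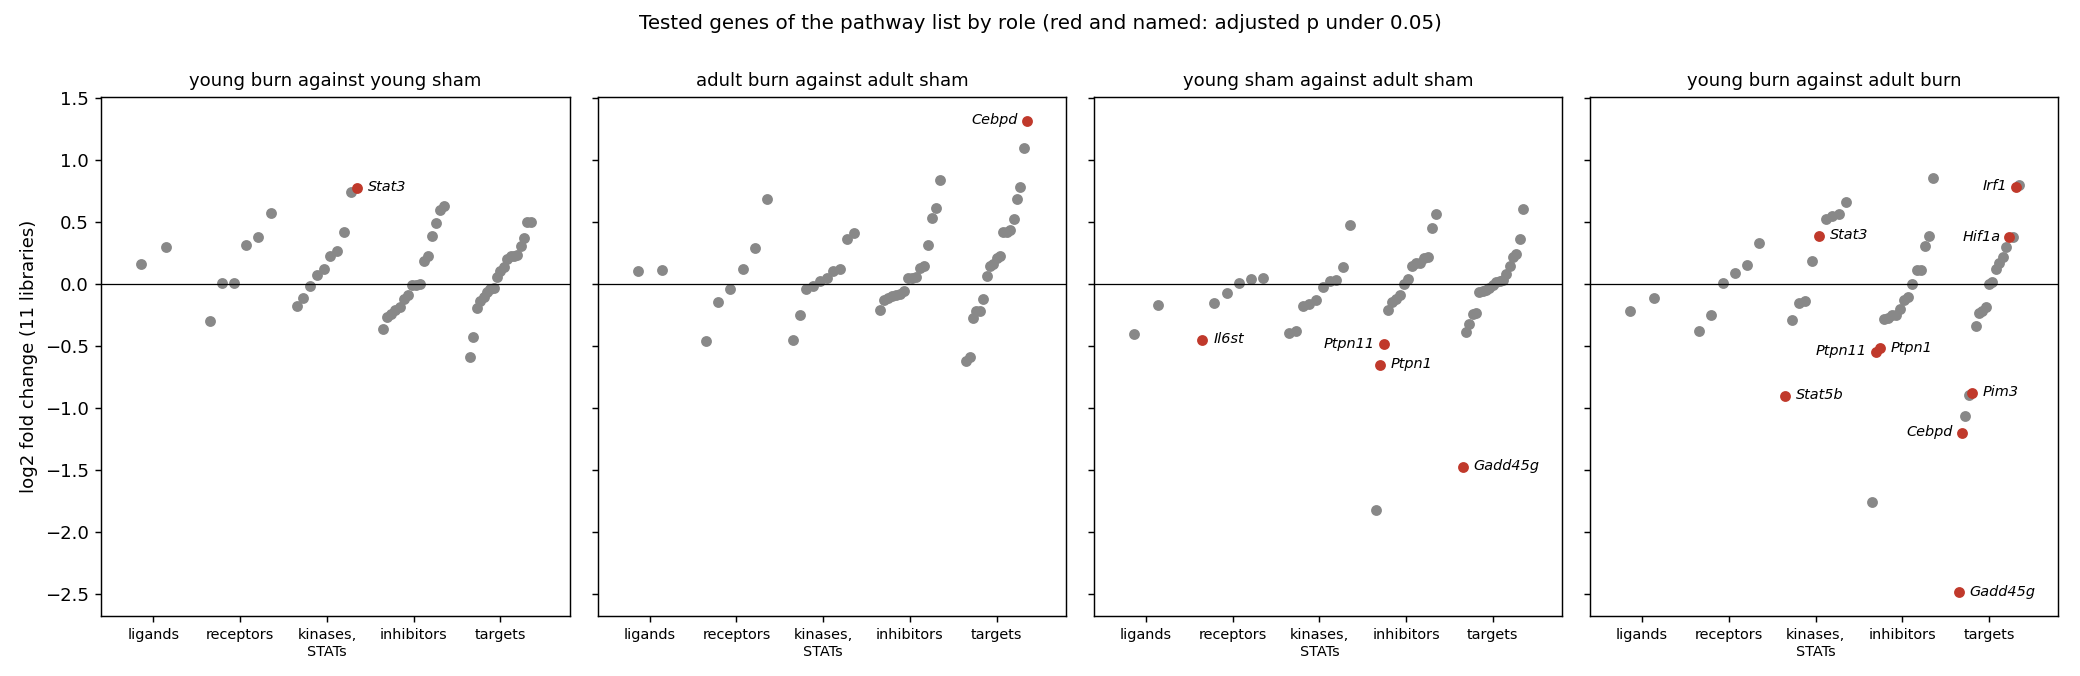
Log2 fold changes in 11 libraries (vertical axis) of the 53 tested pathway genes by role, 1 point per gene, in 4 comparisons; red and named genes had an adjusted p under 0.05. Burn gave 1 red gene per age (Stat3 at 0.77 in young, Cebpd at 1.31 in adult), while the comparisons between ages gave 4 in sham and 9 in burn. Over all genes, 0.664% and 0.909% were called after burn, and 11.8% and 20.7% between ages.

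Between ages the list held more calls. In young against adult sham, Il6st, the phosphatase genes Ptpn1 and Ptpn11, and the stress gene Gadd45g were lower and 0 genes were higher, 4 of 53 against 11.8% of all genes. The log2 fold change was -0.66 for Ptpn1 (adjusted p = 0.0125), -0.49 for Ptpn11 (adjusted p = 0.00784) and -1.48 for Gadd45g (adjusted p = 0.0181). With all 12 libraries these adjusted p were 0.064, 0.0651 and 0.122, so that 0 list genes were called by edgeR there, against 3.76% of all genes. Of the list, 6 genes had an unadjusted p under 0.05 in that fit, for which the share of all genes is not given here. In 11 libraries DESeq2 called all 4, against 8.99% of all genes. The Ptpn1 call was lost without young sham replicate 3, adult sham replicate 1 or adult sham replicate 2 (adjusted p up to 0.0675), and the Gadd45g call without these or young sham replicate 2 (up to 0.0869).

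In young against adult burn, Stat3, Hif1a and Irf1 were higher and Stat5b, Ptpn1, Ptpn11, Cebpd, Pim3 and Gadd45g were lower, 9 of 53 against 20.7% of all genes. Irf1, an interferon-responsive transcription factor, had 21, 20.2 and 26.2 CPM in young burn and 12.7, 13.8 and 15.4 CPM in adult burn (log2 fold change 0.78, adjusted p = 0.00763). Stat5b, the STAT of growth hormone signalling, had 215, 213 and 231 CPM in young burn and 342, 495 and 436 CPM in adult burn (-0.90, adjusted p = 0.0204). Neither gene's groups overlapped. Gadd45g had 23.5, 81.3 and 26.6 CPM in young burn and 111, 194 and 124 CPM in adult burn (-2.49, adjusted p = 0.00182, and -1.69, adjusted p = 0.0445, with all 12 libraries). Stat3, Irf1, Stat5b and Gadd45g were called with all 12 libraries too, as was Socs4, an inhibitor gene (0.47, adjusted p = 0.0348, against 0.39 and 0.0523 in 11 libraries). Hif1a (0.37, adjusted p = 0.0413), the oxygen-sensing factor, had an adjusted p of 0.078 there, Pim3 (-0.88, 0.00553) 0.0976, Cebpd (-1.20, 0.0171) 0.141, Ptpn1 (-0.52, 0.0326) 0.202 and Ptpn11 (-0.55, 0.00461) 0.0684.

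Of these 9 calls, that of Gadd45g alone held without each of the 11 libraries in turn. Without young burn replicate 1, which left a single young burn library, the calls of Stat3, Stat5b, Ptpn1, Ptpn11, Cebpd, Pim3 and Hif1a were lost. Without young burn replicate 3, those of Stat3, Stat5b, Ptpn1, Cebpd, Hif1a and Irf1 were lost. Without adult burn replicate 2, those of Stat3, Stat5b, Ptpn1, Cebpd and Hif1a were lost, and without adult burn replicate 3 those of Stat3 and Hif1a. Hif1a was also lost without any of the adult sham libraries. DESeq2 in the 11 libraries called 6 of the 9, leaving out Stat3, Ptpn1 and Hif1a, and it called 14.9% of all genes.

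The small RNA libraries add a measurement beside the mRNA, since the gene of mir-21a is a known target of STAT3. The entry mmu-mir-21a does not tell the arms of the hairpin apart. RefSeq gives the mature forms below, 5′ to 3′ with the seed (bases 2 to 8) in capitals, on the minus strand of chromosome 11 of GRCm38.p6 at 86584120 to 86584141 for the 5p arm and 86584082 to 86584103 for the 3p arm.
miR-21a-5p: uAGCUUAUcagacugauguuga
miR-21a-3p: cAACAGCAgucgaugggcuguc

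The level of mir-21a was 6082, 7361 and 6503 CPM of miRNA counts in young sham and 7962, 10320 and 8216 CPM in young burn. It was 9559, 9569 and 9649 CPM in adult sham and 11040, 11300 and 15210 CPM in adult burn. Every burn library was above every sham library of its age. The log2 fold change was 0.37 in young (95% interval 0.055 to 0.69, adjusted p = 0.309) and 0.38 in adult mice (95% interval 0.058 to 0.70, adjusted p = 0.544), and edgeR called neither. It called 0 of 299 miRNA entries, 0%, in both burn comparisons, with 37 in young and 23 in adult mice at an unadjusted p under 0.05. DESeq2 called 0 entries in young and 1 in adult mice, and mir-21a was not that entry. Without young burn replicate 2 the young value was 0.25 (adjusted p = 0.616).

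Between ages mir-21a was called lower in young mice, by 0.58 on the log2 scale in sham (SE 0.15, adjusted p = 0.00336) and also by 0.58 in burn (SE 0.15, adjusted p = 0.00353), where 56.2% and 55.2% of entries were called. These calls depended on the scaling. With library size alone, which moved the median of all entries by 0.51 between the sham groups and 0.34 between the burn groups, the log2 fold changes were -0.064 (adjusted p = 0.679) and -0.24 (adjusted p = 0.105). That scaling moved the median of the adult burn comparison by 0.20 and called mir-21a higher there, at 0.56 (adjusted p = 0.0365). The myeloid entry mmu-mir-223 had 40 to 95 counts per library. Its log2 fold change was -0.21 in young (adjusted p = 0.829) and 0.42 in adult mice (adjusted p = 0.712).

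**Figure D5:**
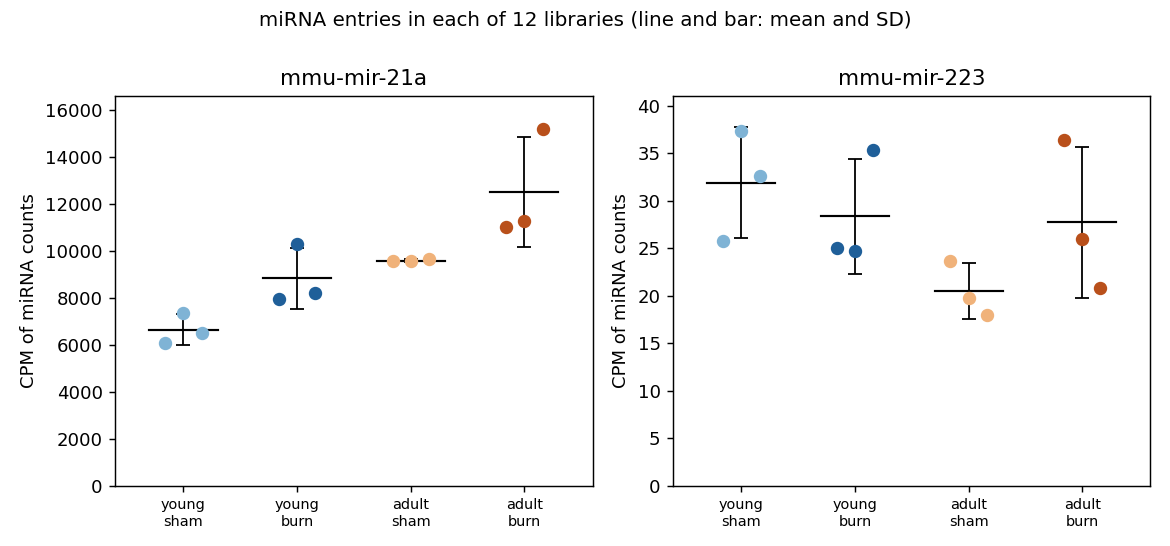
Levels of mmu-mir-21a and mmu-mir-223 in each of the 12 small RNA libraries (CPM of miRNA counts after TMM scaling), with mean and SD of 3 mice per group. For mir-21a the young sham libraries lay at 6082 to 7361 CPM and the young burn libraries at 7962 to 10320 CPM, and for mir-223 the groups overlapped at both ages.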

How the data were processed

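The authors made 75 base paired reads of poly-A RNA and of small RNA from the same muscles. The submitters' processing notes name bcl2fastq 2.20, STAR 2.7.5c and featureCounts 2.0.1. The mRNA reads were aligned to GRCm38 and counted per Gencode M25 gene, and the miRNA reads were trimmed with mirDeep2 tools, aligned with STAR and counted with featureCounts. Both deposited tables hold raw counts per gene or miRNA entry, with no normalization. How strand and multimapping miRNA reads were handled was not given in the sources used here.

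Software was edgeR 4.0.16 with limma 3.58.1, DESeq2 1.42.0 (both under R 4.3.3), and Python 3.11.15 with matplotlib 3.10.9 for plots. Normalization was by TMM. Low features were removed by filterByExpr (minimum count 10, minimum total 15), which kept 12651 genes in 11 libraries (12408 in 12) and 299 miRNA entries. The quasi-likelihood fit of edgeR held 1 mean per group and no covariate, and an additive model of age and burn gave the burn term. All p-values are two-sided and adjusted by Benjamini-Hochberg across every feature tested. The mRNA tests used 11 libraries without young burn replicate 2, and the miRNA tests 12. Symbols, positions and exon lengths were taken from Gencode M21 and a table of gene names on GRCm38, and 260 identifiers had no match. The fits were also run on simulated counts with larger changes than that of Stat3 here. That run does not measure their power or error for changes of this size. Correlations used log2 CPM with a prior count of 2. Total miRNA counts per library are a measure of depth, and with 3 mice per group the spread between mice limits every estimate.

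The members, the pathway list and the marker lists were chosen with earlier results of these data known. The text names all members in each comparison, the pathway list genes called in any comparison, the ligands with their counts, and the 5 protein-coding genes closest to Stat3. Other genes named give the range of a role group and were chosen after their values were seen. No source used here gives replicate numbers as pairs of mice, and the main tests used no pairing (see the closing section). Alternatives were all 12 libraries, other scaling, no filter, DESeq2, a fit of only the groups compared, a replicate block, and leaving out each library. Values of some list genes are not reported here.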

Additional observations from a re-analysis of the deposited data

Results flagged for a closer look

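Young burn replicate 2, which entered no mRNA test of the 11 libraries, held levels above each of the 3 young sham libraries for 8 of the 10 genes. This was 8 of the 9 tested, and the same held for 34.2% of all 12651 genes tested. Cebpb was at 140 CPM, against at most 41.3 CPM in young sham and 52.7 CPM in any other library. Stat3 was at 85.1 CPM (young sham at most 44.9), Osmr at 22.9 CPM (17.3), Junb at 28.6 CPM (23.3) and Bcl3 at 3.27 CPM (2.19). Il6st was at 178 CPM (169), Il6ra at 20.2 CPM (19.2) and Myc at 12.4 CPM (10.6). For Stat3, Junb, Bcl3 and Cebpb this was the highest of all 12 libraries. The library also held the highest sum of neutrophil markers, at 27.3 CPM, and their part in these levels was not tested.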

How the results depend on the processing

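With RLE size factors, no count of called members or list genes moved by over 1.5 times. In all 12 libraries edgeR called 0 list genes after adult burn, against 0.00806% of all genes. It called 0 members and 0 list genes between the sham groups, against 3.76%. Between the burn groups it called 5 list genes, against 10.8%. DESeq2 called 2 list genes after adult burn, against 2.33% of all genes, and 0 members between the burn groups, against 14.9%. DESeq2 with all 12 libraries called 0 list genes after adult burn, against 0.0245%. It called 3 for the burn term, against 2.83%, and 3 between the burn groups, against 10.8%. It still called Il6st between the sham groups, against 5.23% of all genes. The fit of only the groups compared gave 2 list genes after adult burn. Library size alone gave 3 list genes after young burn, where it moved the median of all genes by 0.15, and for mir-21a 1 call after adult burn and 0 calls in either comparison of ages. The share of all genes called is not given here for library size alone or for the fit of only the groups compared. Without the filter on low counts, 2 list genes were called after young burn, 1 member (Il6ra) and 9 list genes after adult burn, 4 members (Stat3, Socs3, Il6ra and Osmr) and 8 list genes for the burn term, 3 list genes for the interaction, 8 list genes between the sham groups and 0 members between the burn groups. Over all genes, calls without the filter went from 0.664% to 2.11% after young burn and 0.909% to 2% after adult burn. They went from 2.15% to 2.85% for the burn term and 0.0949% to 0.859% for the interaction. Between the sham groups they went from 11.8% to 6.73%, and between the burn groups from 20.7% to 10.1%. The cause of these differences was not tested.

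With the replicate block, Stat3 kept a log2 fold change of 0.79 after young burn (adjusted p = 0.0595) and 0.40 between the burn groups (adjusted p = 0.0536), so that 0 members were called in either, and 0 list genes were called after young or adult burn. It changed no other count of called members by over 1.5 times. Of 15 pairs of libraries with the same number, the correlations of deviations from group means ran from -0.172 to 0.14, and 2 were above 0.1. Of the 11 libraries, 4 correlated best with their own number. These values gave no sign that the numbers pair the mice, but so few libraries cannot exclude it.

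Leaving out each library gave 0 to 1 members and 0 to 2 list genes after young burn, 0 to 0 members and 0 to 2 list genes after adult burn, and 1 to 2 members and 1 to 3 list genes for the burn term. It gave 0 to 1 members and 1 to 5 list genes between the sham groups, and 0 to 1 members and 2 to 10 list genes between the burn groups. For the interaction it gave 0 of either. Over all genes the calls ran from 2 to 203 after young burn (84 with 11 libraries), 25 to 161 after adult burn (115) and 75 to 394 for the burn term (272). Of the member log2 fold changes in these fits, 30, none of them called, moved by at least the SE of the 11-library estimate. Another 553 moved by less or stayed called, 10 lost their call and 1 gained it. In young burn against young sham those of Socs3, Junb, Cebpb and Myc, none of them called, changed sign without a young burn replicate. In both comparisons of ages the number of all genes called also varied between the fits that left out a library. Some of these fits held a single young burn library. The counts of mir-21a did not change. No log2 fold change of a called member reversed under any alternative run. Depth limits Il6, with 8 counts, and Bcl3, with 7 to 18 counts per library.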
